A study of Homo sapiens with 8 samples.

Results

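The enzymes described here make, use and recycle S-adenosylmethionine (SAM), the methyl donor of cells, and build the polyamines from it. Counted with them are MAT2B, a regulatory partner, and AHCYL1, a relative of AHCY in sequence that is not known as a hydrolase. The genes were chosen by name, MTAP, MAT2A, MAT2B, AHCY, AHCYL1, AMD1, SRM, SMS, ODC1 and MTR, and all 10 of them were found among the 61906 genes listed and passed the filter on low values, as did 14478 genes in all. Their transcripts were measured by RNAseq in U251 cells, a human glioblastoma line of wild-type genotype grown in medium with serum. In 4 libraries the cells had received vehicle (DMSO) and in 4 they had received LLY-283 at 100 nM, in both groups for 24 h before the RNA was taken. LLY-283 competes with SAM for its site on PRMT5, an enzyme that dimethylates arginines symmetrically, and so blocks it. The comparison asked which transcripts of the enzymes around SAM differ after inhibition of an enzyme that spends it. The labels name biological replicates without saying whether they were separate cultures, so the p-values measure the spread between these libraries, which may be in part technical.

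As background, the methionine adenosyltransferase MAT2A joins methionine and ATP to form SAM, and MAT2B is its regulatory partner. Methyltransferases such as PRMT5 turn SAM into S-adenosylhomocysteine (SAH), AHCY splits SAH into homocysteine and adenosine, and MTR, the cobalamin-dependent methionine synthase, returns homocysteine to methionine. In a side branch AMD1 decarboxylates SAM, ODC1 makes putrescine from ornithine, and SRM and SMS attach aminopropyl groups to give spermidine and spermine. The by-product, methylthioadenosine, is cleared by MTAP and salvaged to methionine. Methylthioadenosine competes with SAM for PRMT5, and MTAP is often lost from tumours together with its neighbour CDKN2A.

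The values are TPM (a transcript's abundance per length as a share of the library), so that levels may be compared between genes. They keep no record of read number, and the depth of the libraries is unknown. The number of genes above 0 lay between 24386 and 24757 in vehicle libraries and was lower after LLY-283, at 24042 to 24315, and its part in the results was not tested. LLY-283 replicate 4 stood apart, with 7.19% of its TPM in genes of the mitochondrial genome against 10.15% to 11.0% in the other 7 libraries. The astroglial and glioma markers VIM, NES, SOX2 and GFAP were all expressed (GFAP between 662.82 and 839.89 TPM). Of the 11 markers on that list, NES (-0.17 on the log2 scale), SOX2 (-0.27), GFAP (-0.25) and FABP7 (-0.21) fell after LLY-283 and CD44 (0.11) rose, at adjusted p-values of 0.000349 to 0.0168 (limma), while the list summed to between 7625 and 7808 TPM with vehicle and to between 7312 and 7674 TPM with LLY-283. In contrast, OLIG2 and CHI3L1 did not exceed 0.23 TPM in any library. The leukocyte list summed to at most 2.93 TPM and the endothelial list to at most 0.59 TPM. The epithelial list summed to between 526.2 and 561.2 TPM with vehicle and to between 539.3 and 627.2 TPM with LLY-283, through KRT8 and KRT18, with EPCAM at 0.10 TPM or less. The fibroblast list summed to between 137.7 and 151 TPM with vehicle and to between 158.4 and 175.5 TPM with LLY-283. In it COL1A1 rose from 53.9 to 74.9 TPM on average (0.47 on the log2 scale, adjusted p = 0.000356, limma) and PDGFRA was not called (adjusted p = 0.333, limma), with DCN and LUM at 0.25 TPM or less. The part of these markers in the results below was not tested. PRMT5 itself was measured at 100.4 ± 4.91 TPM (SD, n = 4) after LLY-283, with a log2 fold change of 0.01 (95% confidence interval -0.10 to 0.11) whose sign turned under quantile normalization and with the mitochondrial genes left out.

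The sequence element that connects SAM to MAT2A lies in its transcript. METTL16, an RNA adenosine methyltransferase that itself uses SAM, binds hairpins in the untranslated region after the MAT2A stop codon and through them controls the splicing and stability of the MAT2A transcript according to the supply of SAM. A search of the main MAT2A transcript of GENCODE release 44 for the motif TACAGAGAA, read on the sense strand, found 5 exact copies and 1 variant copy (TACAGAAAA). All 6 lie in the last of 9 exons on the plus strand of chromosome 2 (GRCh38), starting 40 to 1350 bases after the stop codon. They are shown with 10 bases on either side and the motif in capitals. The levels of MAT2A, which was not called, and of METTL16 are given below, and a link between them was not tested.
Site at chr2:85543802-85543830: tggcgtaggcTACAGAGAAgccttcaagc
Site at chr2:85544589-85544617: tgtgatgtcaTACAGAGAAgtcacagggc
Site at chr2:85544774-85544802: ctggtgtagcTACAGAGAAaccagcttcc
Site at chr2:85544889-85544917: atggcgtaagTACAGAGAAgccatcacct
Site at chr2:85545004-85545032: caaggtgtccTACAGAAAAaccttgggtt
Site at chr2:85545112-85545140: gctggtgtggTACAGAGAAgccagcttgt
The exact motif occurred at least once in 661 of 19701 canonical protein-coding transcripts (3.36%), and 2 of them, those of MAT2A and MUC16, held 5 copies or more. The match is a description of the sequence, and binding was not measured here.

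Across the 10 enzymes the changes were small. At an adjusted p-value under 0.05 (limma with Benjamini-Hochberg adjustment over all genes tested), 2 of 10 fell after LLY-283, AHCYL1 and MTR, against 17.6% of all genes tested, and 0 rose, against 8.61% (26.2% in either direction). Without adjustment, MTAP, MAT2A, MAT2B, AHCY and ODC1 also had p-values under 0.05, as did 38.6% of all genes tested with the called ones included. No member changed more than 1.5-fold, which 3.87% of the genes tested did. The median change on the log2 scale was -0.05 for the members and -0.05 for all genes tested. The values of the 2 groups did not overlap for 5 members (MAT2A, MAT2B, AHCY, AHCYL1 and MTR), against 29.2% of the genes tested. The share of members called in either direction was thus below that of all genes tested and the share without overlap above it, over 10 genes.

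**Figure D1:**
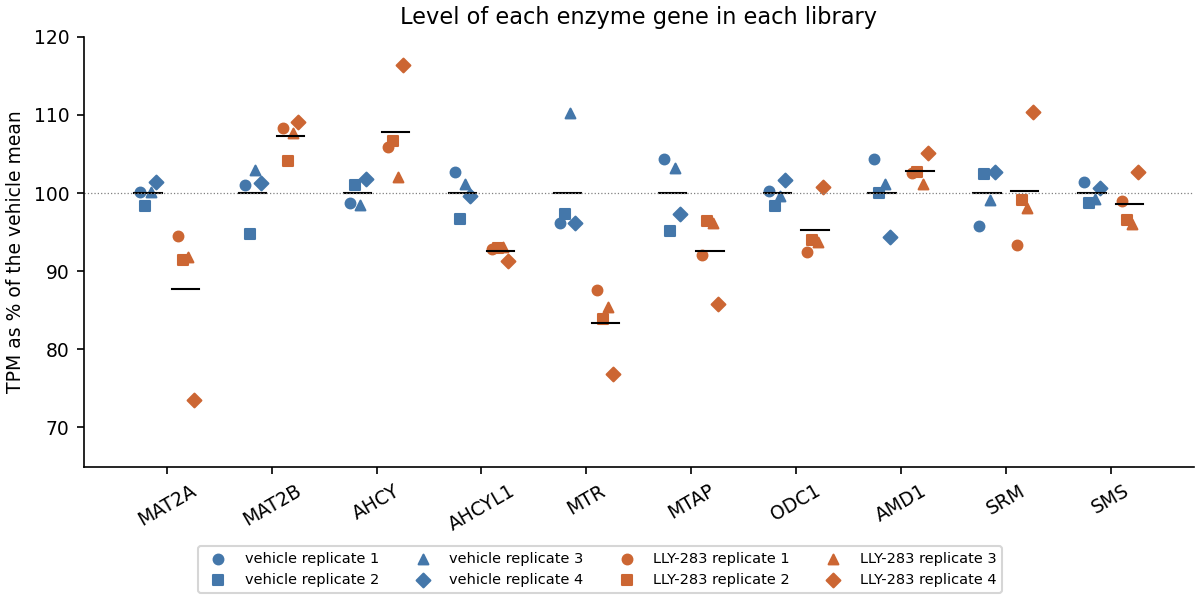
TPM of each enzyme gene in each of the 8 libraries, as percent of the mean of the 4 vehicle libraries (vertical axis, which does not start at 0), with vehicle in blue, LLY-283 in orange, a symbol for each replicate number and a bar at the group mean. LLY-283 replicate 4 lies below the other libraries for MAT2A (127.74 TPM) and MTR (7.26 TPM) and above them for AHCY (141.58 TPM) and SRM (139.60 TPM). It is also lowest for MTAP (64.05 TPM) and AHCYL1 (130.07 TPM) and highest for MAT2B (78.16 TPM), AMD1 (62.85 TPM) and SMS (899.01 TPM). For ODC1 it lies among the vehicle libraries.

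MAT2A (ENSG00000168906, chromosome 2, 85539168 to 85545281 of GRCh38) had 174.06, 171.04, 174.22 and 176.26 TPM with vehicle and 164.36, 158.92, 159.60 and 127.74 TPM with LLY-283. All 4 LLY-283 values lay below all 4 vehicle values, and replicate 4 lay far below the other 3. The log2 fold change of -0.19 (standard error 0.071) with all libraries was short of the threshold (adjusted p = 0.0695, limma). Without LLY-283 replicate 4 the difference was smaller, at -0.11 on the log2 scale, and passed it (adjusted p = 0.00704, limma). The 95% confidence interval with all libraries ran from -0.35 to -0.04. GGCX, a carboxylase gene that overlaps MAT2A on the opposite strand, had 44.6 ± 2.39 TPM with vehicle and 39.6 ± 2.73 TPM with LLY-283 (SD, n = 4 each) and was lower by -0.17 on the log2 scale (adjusted p = 0.0480, limma). The strandedness of the counting is not given in the sources used here, so reads shared by the pair cannot be told apart.

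METTL16 (ENSG00000127804, chromosome 17, 2405562 to 2511891), the methyltransferase that reads the MAT2A sites, rose, by more than any of the 10 enzymes differed. It had 27.38, 24.10, 25.68 and 25.66 TPM with vehicle and 41.67, 39.00, 40.25 and 42.33 TPM with LLY-283. The lowest LLY-283 value was well above the highest vehicle value. METTL16 rose by 0.67 on the log2 scale with a standard error of 0.046 (adjusted p = 4.25e-05, limma), or 1.59-fold, and the change lay between 0.64 and 0.71 under the 18 alternatives tried.

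MAT2B (ENSG00000038274, chromosome 5, 163503114 to 163519558) had 72.37, 67.86, 73.76 and 72.53 TPM with vehicle and 77.56, 74.55, 77.10 and 78.16 TPM with LLY-283. The groups did not overlap, with LLY-283 above vehicle. The log2 fold change of 0.10 (standard error 0.034) was just short of the threshold (adjusted p = 0.0534, limma), and it passed with median-of-ratios scaling (adjusted p = 0.0113), under quantile normalization (adjusted p = 0.0437) and with genes under a mean of 5 TPM left out (adjusted p = 0.0472). MAT1A, the form of the enzyme found in liver, was listed at 0 in all 8 libraries. SLC25A26, the carrier that brings SAM into mitochondria, rose from a mean of 11.3 ± 0.746 TPM to one of 13.7 ± 1.41 TPM (SD, n = 4 each; 0.27 on the log2 scale, adjusted p = 0.0346, limma), with overlapping groups and adjusted p-values up to 0.0872 under the alternatives.

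**Figure D2:**
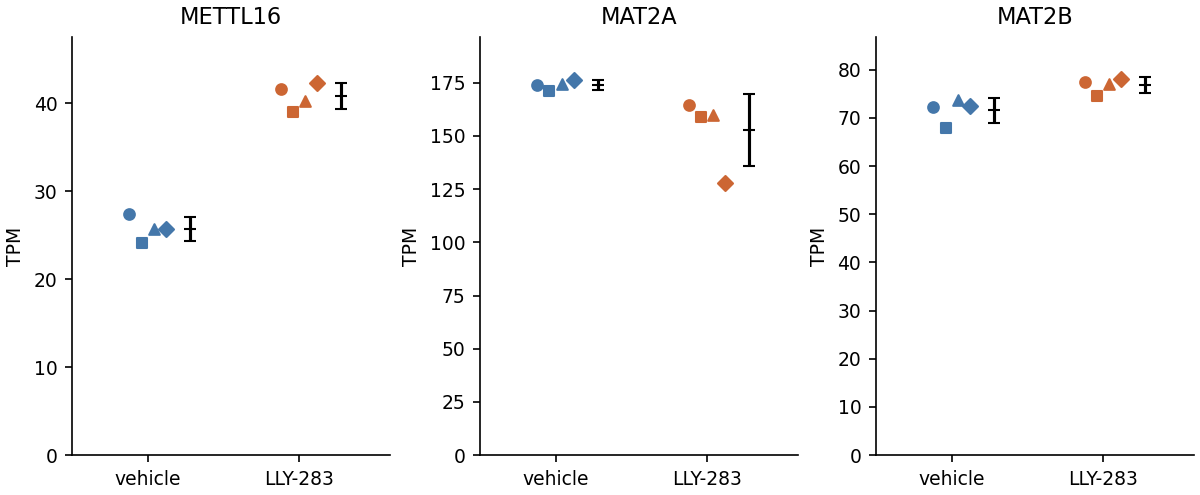
TPM of METTL16, MAT2A and MAT2B in each library (vertical axes from 0), vehicle in blue and LLY-283 in orange, with a symbol for each replicate number and the group mean ± SD (n = 4) beside the points. METTL16 rises from 25.7 to 40.8 TPM on average, whereas the MAT2A mean goes from 173.9 to 152.7 TPM with LLY-283 replicate 4 lowest.

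At the next step, the differences of the hydrolase and of its relative had opposite signs. AHCY (ENSG00000101444, chromosome 20, 34280268 to 34311802), the SAH hydrolase, had 120.22, 122.90, 119.80 and 123.88 TPM with vehicle and 128.89, 129.87, 124.21 and 141.58 TPM with LLY-283. The LLY-283 values lay above the vehicle values. The log2 fold change of 0.11 (standard error 0.040) had an adjusted p of 0.0784 (limma) and was not called, but it passed with median-of-ratios scaling (adjusted p = 0.0372), with the mitochondrial genes left out of the total (adjusted p = 0.0448) and without LLY-283 replicate 3 (adjusted p = 0.0470). Without LLY-283 replicate 4, its highest library, the difference was 0.07 (adjusted p = 0.0798, limma), and the adjusted p reached 0.159 under the alternatives.

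AHCYL1 (ENSG00000168710, chromosome 1, 109984765 to 110023742) resembles AHCY in sequence but is known as a regulator of the inositol trisphosphate receptor and not as a hydrolase. It had 146.19, 137.66, 143.98 and 141.94 TPM with vehicle and 132.27, 132.44, 132.54 and 130.07 TPM with LLY-283. The LLY-283 libraries were tightly grouped below all vehicle libraries. AHCYL1 fell by 0.11 on the log2 scale (standard error 0.027, adjusted p = 0.0146, limma), the smallest p-value among the 10 enzymes. The call held with each library left out in turn (adjusted p between 0.0142 and 0.0440) but not with median-of-ratios scaling (log2 fold change -0.07, adjusted p = 0.103). AHCYL2 (log2 fold change 0.20, adjusted p = 0.0801) and the adenosine-removing enzymes ADK (0.04, adjusted p = 0.688) and ADA (-0.03, adjusted p = 0.773) were not called.

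The 3 genes whose levels followed AHCYL1 most closely over the 8 libraries were HMMR (Pearson r = 0.988), STIL (r = 0.986) and ARHGEF2 (r = 0.985), out of 14477 searched on log2(TPM + 0.1). The points of this correlation share the treatment groups, so it describes likeness over these libraries and no more.

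MTR (ENSG00000116984, chromosome 1, 236795260 to 236921278), which remethylates homocysteine, was the lowest of the 10 enzymes in TPM. It had 9.08, 9.20, 10.42 and 9.09 TPM with vehicle and 8.28, 7.92, 8.07 and 7.26 TPM with LLY-283. All LLY-283 values were below all vehicle values, and vehicle replicate 3 was above its group. MTR fell by 0.26 on the log2 scale (standard error 0.068, adjusted p = 0.0212, limma). Leaving out 1 library at a time gave adjusted p-values of 0.0290 to 0.0499 (limma), and the call was lost under quantile normalization (log2 fold change -0.15, adjusted p = 0.0860). Its reductase MTRR was not called, with means of 22.9 TPM (vehicle) and 23.0 TPM (LLY-283) and LLY-283 replicate 4 lowest at 16.14 TPM. The other 3 LLY-283 libraries averaged 25.3 TPM.

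MMAB, a cobalamin adenosyltransferase, was among the listed genes of cobalamin handling. It fell from a mean of 41.4 ± 1.99 TPM to one of 31.4 ± 1.89 TPM (SD, n = 4 each, -0.40 on the log2 scale, adjusted p = 0.000731, limma). TCN2, the cobalamin carrier transcobalamin, fell by 0.38 on the log2 scale at 2.51 to 4.64 TPM and narrowly passed (adjusted p = 0.0490, limma), a call lost in 13 of the 17 alternatives that tested it (adjusted p up to 0.277). MMACHC, MMADHC, MMAA, LMBRD1 and CD320 were not called. BHMT and BHMT2, the alternative remethylation enzymes, were listed at 0 in all libraries.

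MTAP (ENSG00000099810, chromosome 9, 21802636 to 21937651), which clears methylthioadenosine, was well expressed in these U251 cells. It had 77.89, 71.07, 77.10 and 72.63 TPM with vehicle and 68.74, 71.96, 71.85 and 64.05 TPM with LLY-283. The groups overlapped. The log2 fold change of -0.11 (standard error 0.047) was not beyond the spread between replicates after adjustment (adjusted p = 0.113, limma), and did not pass in any of the 18 alternatives (adjusted p between 0.0907 and 0.296).
The genes on either side of MTAP gave different levels. CDKN2A (21967752 to 21995301), CDKN2B (22002903 to 22009305) and CDKN2B-AS1 (21994139 to 22128103), the next genes on chromosome 9, were listed at 0 in all 8 libraries, and the long noncoding gene ENSG00000264545, which overlaps MTAP on the same strand, did not exceed 1.23 TPM. DMRTA1 (22446824 to 22455740), farther along, was expressed and fell from a mean of 4.47 ± 0.0580 TPM to one of 3.66 ± 0.0665 TPM (SD, n = 4 each; -0.28 on the log2 scale, adjusted p = 0.0176, limma). On the other side FOCAD (20658309 to 20995955) fell from a mean of 24.5 ± 0.903 TPM to one of 20.9 ± 0.408 TPM (-0.23 on the log2 scale, adjusted p = 0.00325, limma), whereas KLHL9 (log2 fold change 0.13), MLLT3 (-0.22) and MIR31HG (-0.18) passed the filter on low values and were not called. A gene value does not show which exons the reads cover, and a gene listed at 0 may lie under the detection limit.

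Of the enzymes after MTAP in the salvage of methionine, 1 of the 5 passed the test, against 26.2% of all genes tested. MRI1, the isomerase of the next step, had 31.07, 29.24, 29.70 and 28.99 TPM with vehicle and 25.30, 23.28, 23.24 and 22.81 TPM with LLY-283, without overlap. It fell by 0.33 on the log2 scale (standard error 0.044, adjusted p = 0.000811, limma). APIP (-0.02), ENOPH1 (-0.01), ADI1 (-0.06) and GOT1 (0.00) had log2 fold changes that did not pass the test.

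None of the 4 polyamine synthesis enzymes among the members was called, against 26.2% of all genes tested. ODC1 (ENSG00000115758, chromosome 2, 10439968 to 10448327), which makes putrescine, had 201.21, 197.39, 199.83 and 204.05 TPM with vehicle and 185.47, 188.54, 188.13 and 202.07 TPM with LLY-283. LLY-283 replicates 1 to 3 lay below all vehicle libraries and replicate 4 lay among them. The difference was -0.07 on the log2 scale (standard error 0.032) and was not called (adjusted p = 0.128, limma). Without LLY-283 replicate 4 it was -0.10 and passed the threshold (adjusted p = 0.00843), as it did under quantile normalization (adjusted p = 0.0169) and with the mitochondrial genes left out of the total (adjusted p = 0.0305).

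AMD1 (ENSG00000123505, chromosome 6, 110874770 to 110898879), the SAM decarboxylase, had 62.38, 59.78, 60.46 and 56.40 TPM with vehicle and 61.26, 61.36, 60.45 and 62.85 TPM with LLY-283. The groups overlapped, with a log2 fold change of 0.04 and a 95% confidence interval from -0.04 to 0.12 (adjusted p = 0.426, limma). SRM (ENSG00000116649, chromosome 1, 11054584 to 11060020), the spermidine synthase, had 121.21, 129.62, 125.35 and 129.96 TPM with vehicle and 118.02, 125.44, 124.04 and 139.60 TPM with LLY-283, with a log2 fold change of 0.00 and an interval from -0.11 to 0.11 (adjusted p = 0.994, limma; -0.05 without LLY-283 replicate 4). SMS (ENSG00000102172, chromosome X, 21940709 to 21994837), the spermine synthase, had 888.28, 863.79, 868.63 and 880.99 TPM with vehicle and 866.23, 844.67, 841.04 and 899.01 TPM with LLY-283. Its log2 fold change was -0.02, with an interval from -0.08 to 0.04 (adjusted p = 0.605, limma). In SRM and SMS, LLY-283 replicate 4 was the highest of the 8 libraries.

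The order of the mean levels, in TPM over the 8 libraries, was SMS (869.1), ODC1 (195.8), MAT2A (163.3), AHCYL1 (137.1), SRM (126.7), AHCY (126.4), MAT2B (74.2), MTAP (71.9), AMD1 (60.6) and MTR (8.67). Within groups the order turned for MTAP, above MAT2B with vehicle (means of 74.7 and 71.6 TPM), and for AHCY, above SRM with LLY-283 (131.1 and 126.8 TPM). SMS ranked 159 of the 14478 genes tested and MTR 9493. Among the vehicle libraries, the ranges of SRM and AHCY overlapped, and so did those of MAT2B and MTAP, whereas the other neighbours in this order did not. Among the LLY-283 libraries the ranges of AHCYL1, SRM and AHCY overlapped, and MAT2A in replicate 4 (127.74 TPM) fell within the range of AHCY. Pseudogene copies named after MTAP, AHCY, AMD1, SRM and SMS, between which the estimation of levels can divide reads, reached at most 3.01 TPM in any library.

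**Figure D3:**
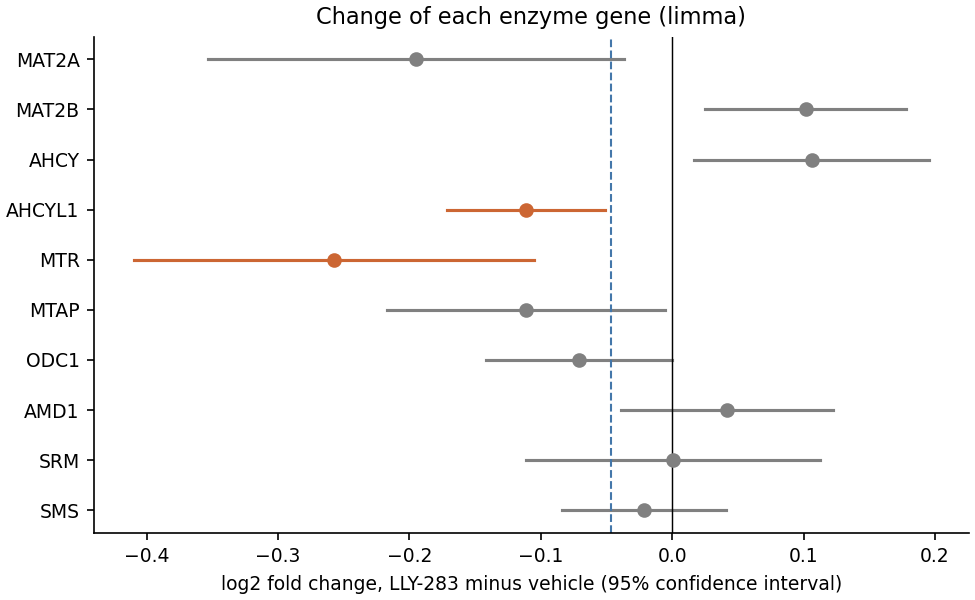
Log2 fold change (LLY-283 minus vehicle) of each enzyme gene with its 95% confidence interval from limma, in orange where the adjusted p-value was under 0.05 and in grey otherwise. The dashed line marks the median of all genes tested (-0.05), and AHCYL1 (-0.11) and MTR (-0.26) are the 2 genes called.

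Ratios of the TPM of 2 genes in the same library do not depend on how the library was scaled, and pairs were compared with exact two-sided permutation tests over the 70 assignments of 8 libraries. The smallest p these allow is 0.0286, and the pairs were 6 in all. For MAT2A to MAT2B, AHCY to AHCYL1 and MAT2A to AHCY the separation of the groups follows from the genes' own values, which lay apart in opposite directions, so these ratios are given as a description with no p, and the p-values were adjusted over the other 3 pairs, a choice made after seeing the data.
The MAT2A to MAT2B ratio was 2.41, 2.52, 2.36 and 2.43 with vehicle and 2.12, 2.13, 2.07 and 1.63 with LLY-283, so that every LLY-283 library lay below every vehicle library. The log2 ratio differed by -0.30, and by -0.21 without LLY-283 replicate 4.
The AHCY to AHCYL1 ratio was 0.822, 0.893, 0.832 and 0.873 with vehicle and 0.974, 0.981, 0.937 and 1.09 with LLY-283, again without overlap. The log2 difference was 0.22. MAT2A to AHCY went from 1.43 ± 0.0284 to 1.17 ± 0.182 (SD, n = 4 each), a log2 difference of -0.30 that was -0.18 without LLY-283 replicate 4.
Within the polyamine branch, ODC1 to AMD1 went from 3.36 ± 0.174 to 3.11 ± 0.0800 (SD, n = 4 each), with every LLY-283 library lower. The margin was narrow, at 3.23 in vehicle replicate 1 against 3.22 in LLY-283 replicate 4. The log2 difference was -0.11 (adjusted p = 0.0429, exact permutation test, and 0.0857 with any 1 library but vehicle replicate 2 left out). ODC1 to OAZ1, the antizyme that targets the ODC1 protein for degradation, went from 0.212 ± 0.00339 to 0.196 ± 0.00649, with a log2 difference of -0.11 (adjusted p = 0.0429, exact permutation test; 0.0857 with any 1 library but vehicle replicate 2 left out). SRM to SMS was 0.145 ± 0.00591 and 0.147 ± 0.00789, and the groups overlapped (adjusted p = 0.714, exact permutation test).

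**Figure D4:**
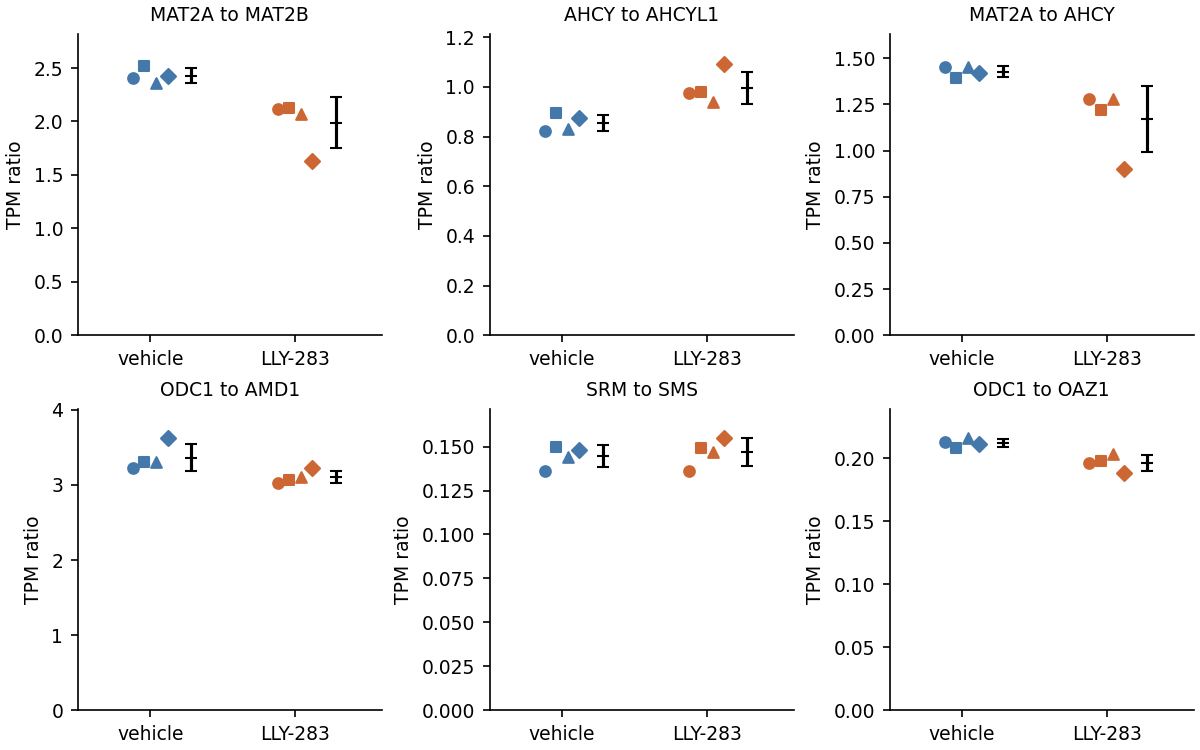
Ratio of the TPM of 2 genes in each library (vertical axes from 0), vehicle in blue and LLY-283 in orange, with a symbol for each replicate number and the mean ± SD (n = 4) beside the points. The groups do not overlap in 5 of the 6 pairs, and in SRM to SMS they do.

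Around the members, 81 further genes of these pathways were taken from lists, of which 68 were tested. Of these, 8 rose and 15 fell, and 45 were not called, where 8.61% of all genes tested rose and 17.6% fell. Their median was -0.02 on the log2 scale, where all genes tested had -0.05. Over all pathway genes, members included, 8 rose and 17 fell. The number that rose was 3 to 6 with any 1 library left out, in fits that hold fewer samples, and 12 with median-of-ratios scaling. METTL16, DHPS and NNMT rose in the analysis given here and under all 18 alternatives, whereas 11 genes fell in all of them (among them CTH, FPGS, GAMT, ICMT, MMAB, MRI1, MTHFD1L, SHMT1, SLC18B1 and TYMS). The share of all genes tested that kept a call in this way is not given here, so these counts cannot be set against it.

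In the folate cycle, which hands the methyl group to MTR, 6 of 14 genes tested fell and 2 rose (17.6% and 8.61% of all genes tested). SHMT1, the cytosolic serine hydroxymethyltransferase, had 92.68, 91.39, 93.46 and 91.21 TPM with vehicle and 70.20, 71.02, 70.50 and 70.38 TPM with LLY-283. The values within each group lay close together, and SHMT1 fell by 0.39 on the log2 scale (standard error 0.025, adjusted p = 3.31e-05, limma). FPGS, which adds the glutamates that hold folate in the cell, fell from a mean of 104.3 ± 8.78 TPM to one of 83.7 ± 3.20 TPM (SD, n = 4 each; adjusted p = 0.00435, limma). GGH, which removes them, rose from a mean of 145.7 ± 4.15 TPM to one of 155.2 ± 2.98 TPM (adjusted p = 0.0464, limma), a call lost in 10 of the 18 alternatives (adjusted p up to 0.117). TYMS (log2 fold change -0.20), MTHFD1L (-0.25) and MTHFD2 (-0.10) also fell, of which MTHFD2 lost its call in 7 of the 18 alternatives (adjusted p up to 0.168, limma). MTHFD1, the cytosolic enzyme of several folate steps, rose by 0.11 on the log2 scale (adjusted p = 0.0441, limma), and its adjusted p-value reached 0.117 under the alternatives. SHMT2 was not called (log2 fold change -0.08, adjusted p = 0.125).

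Both enzymes of transsulfuration, which drains homocysteine toward cysteine, fell, CTH in all alternatives and CBS in all but 1 (without vehicle replicate 4, adjusted p = 0.0538, limma). Of all genes tested, 17.6% fell. CTH, the cystathionine lyase, had 7.75, 6.90, 8.0 and 7.02 TPM with vehicle and 5.33, 5.40, 4.59 and 5.62 TPM with LLY-283 (limma, adjusted p = 0.00283, change of -0.50 on the log2 scale with standard error 0.084). CBS, the cystathionine synthase, went from a mean of 13.3 ± 0.517 TPM to one of 10.4 ± 1.39 TPM (SD, n = 4 each; -0.36 on the log2 scale, adjusted p = 0.0192, limma), with LLY-283 replicate 4 lowest at 8.45 TPM, and the change was -0.26 without that library (adjusted p = 0.00758, limma). The glutathione synthesis genes GCLC (0.01), GCLM (0.02) and GSS (0.00) had log2 fold changes near 0 and were not called.

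Of the genes that use polyamines, 2 of the 4 tested in the hypusine pathway rose, against 8.61% of all genes tested. DHPS, which transfers part of spermidine to the translation factor EIF5A, had 53.78, 58.11, 58.69 and 59.06 TPM with vehicle and 76.83, 76.27, 76.99 and 72.22 TPM with LLY-283. All LLY-283 values were higher, and DHPS rose by 0.40 on the log2 scale (standard error 0.039, adjusted p = 0.000194, limma). EIF5A itself rose from a mean of 1002 ± 21.7 TPM to one of 1130.0 ± 89.0 TPM (SD, n = 4 each; 0.17 on the log2 scale, adjusted p = 0.0328, limma), with LLY-283 replicate 4 highest at 1260.78 TPM and its call lost in 7 of the 18 alternatives (adjusted p up to 0.0854). Without that library the change was 0.12 (adjusted p = 0.00560, limma). The second hypusine enzyme DOHH was not called (log2 fold change 0.13, adjusted p = 0.267). Of the antizymes and their inhibitors, AZIN2 rose by 0.26 on the log2 scale at 5.79 to 8.28 TPM (adjusted p = 0.0383, limma; up to 0.0845 under the alternatives), and OAZ1, OAZ2, OAZ3 and AZIN1 were not called. The catabolic enzymes SAT1, SAT2, SMOX and PAOX were not called either, and SAT1 was lowest in LLY-283 replicate 4 (143.40 TPM against 185.13 to 212.47 TPM in the other 7 libraries, where the other 3 LLY-283 libraries averaged 190.1 TPM).

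Of the 8 transporters tested, 2 fell, against 17.6% of all genes tested. SLC18B1, a vesicular carrier of polyamines, fell from a mean of 11.3 ± 0.718 TPM to one of 8.71 ± 0.745 TPM (SD, n = 4 each; -0.37 on the log2 scale, adjusted p = 0.00654, limma). SLC7A5, which imports methionine and other large neutral amino acids, fell by 0.10 on the log2 scale (adjusted p = 0.0333, limma; up to 0.256 under the alternatives). Its partner SLC3A2 (-0.12 on the log2 scale, adjusted p = 0.0550) and SLC43A2, SLC38A2, SLC7A1, ATP13A2 and ATP13A3 were not called. Of 7 other SAM-dependent methyltransferases tested, 1 rose and 2 fell, against 8.61% and 17.6% of all genes tested. NNMT, which methylates nicotinamide, rose from a mean of 11.6 ± 0.655 TPM to one of 14.4 ± 0.562 TPM (0.31 on the log2 scale, adjusted p = 0.00339, limma). GAMT, which makes creatine, fell from a mean of 34.9 ± 1.33 TPM to one of 29.0 ± 1.54 TPM (-0.27 on the log2 scale, adjusted p = 0.00325, limma), and ICMT, which methylates the prenylated end of proteins, fell by 0.19 on the log2 scale (adjusted p = 0.0145, limma).

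**Figure D5:**
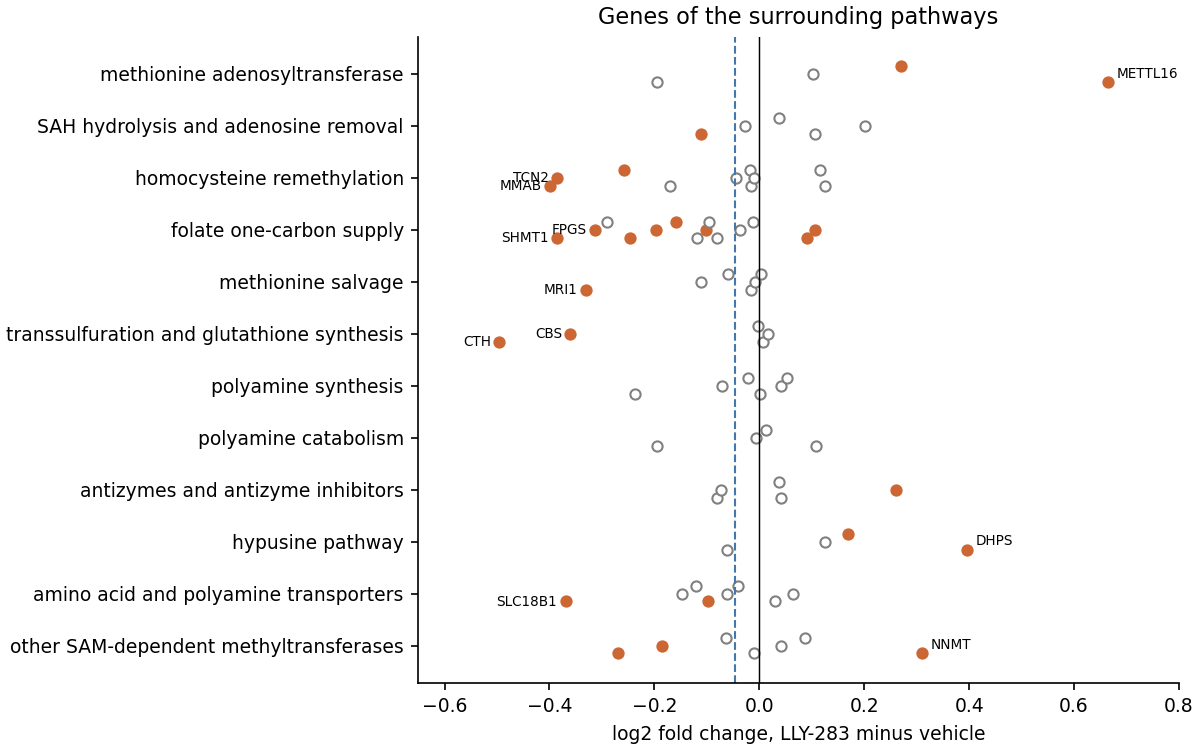
Log2 fold change (LLY-283 minus vehicle, horizontal axis) of each tested gene of the surrounding pathways, members included, 1 row for each list, filled in orange where the adjusted p-value was under 0.05 (limma). The dashed line marks the median of all genes tested (-0.05), and called genes beyond 0.3 on the log2 scale are named, with METTL16 (0.67) and DHPS (0.40) farthest to the right and CTH (-0.50) farthest to the left.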

How the data were processed

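Poly(A) RNA of 8 libraries was sequenced. The authors removed adapters (Cutadapt 1.18), aligned reads to GRCh38 (STAR) and quantified GENCODE release 41 (RSEM). The submitters' processing notes name RSEM 1.3.1 and STAR 2.7.0f, while the methods name other versions. The values the authors deposited are TPM per gene and library; depth and strandedness are not given in the sources used here.

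Genes averaging 1 TPM or more, 14478 in all, were put on the log2(TPM + 0.1) scale and fitted by limma 3.58.1 (lmFit, eBayes with trend; R 4.3.3) with no replicate block and with Benjamini-Hochberg adjustment. Fold changes are on that scale, which understates low genes. The fit was tested on simulated data. Ratios were compared with exact permutation tests. The authors used limma on filtered counts, which were not used here. Positions came from GENCODE release 44 by gene identifier, and sequences from its transcripts.

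The members and lists were chosen with earlier results of these data known. Named are all members, in each list the called gene of smallest p-value in each direction, expressed neighbours of MTAP, PRMT5 and the 3 genes most like the member of smallest p-value; further genes were chosen with their values in view. Alternatives changed the pseudocount (0.5 or 1), the filter, the scaling or the form of eBayes, added a replicate block, or left out each library. Some genes counted in the lists are not reported here by name.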

Additional observations from a re-analysis of the deposited data

Results flagged for a closer look

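Within each group of 4 libraries, the gap of the highest or lowest library to its nearest neighbour was compared with the range of the group. This covered the members, a part of the other named genes and the 6 ratios, 66 groups in all. In 7 groups the gap passed Dixon's critical value for 4 samples, which chance passes in about 1 group in 20. The groups are not independent, since a ratio repeats the values of its genes, as with MAT2A in LLY-283 replicate 4. In LLY-283 replicate 4, MAT2A was at 127.74 TPM against 158.92 to 164.36 TPM in the other 3, AHCYL1 at 130.07 TPM against 132.27 to 132.54 TPM, and DHPS at 72.22 TPM against 76.27 to 76.99 TPM. In the same library the MAT2A to MAT2B ratio was 1.63 against 2.07 to 2.13, and the MAT2A to AHCY ratio was 0.902 against 1.22 to 1.28. MTR was at 10.42 TPM in vehicle replicate 3 against 9.08 to 9.20 TPM. FOCAD was at 20.26 TPM in LLY-283 replicate 2 against up to 21.13 TPM in the other 3. The remaining named genes were not screened in this way, and some of them also had a library apart, OAZ2 and AHCYL2 among them. OAZ2 was at 174.96 TPM in LLY-283 replicate 4 against 162.99 to 163.39 TPM in the other 3. AHCYL2 was at 12.56 TPM in vehicle replicate 3 against 10.50 to 10.55 TPM. The mitochondrial share of LLY-283 replicate 4 was also apart (7.19%), and its part in these values was not tested.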

How the results depend on the processing

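The 2 falls among the members became 1 with median-of-ratios scaling and 3 with mitochondrial genes left out, and ranged from 2 to 4 with 1 library left out (4 without LLY-283 replicate 4, when MAT2A and ODC1 were added). The 0 rises became 2 with median-of-ratios scaling (MAT2B and AHCY), 1 under quantile normalization, 1 with a minimum mean of 5 TPM, 1 with mitochondrial genes left out, and 0 to 1 with 1 library left out. The 8 rises of the pathway genes became 3 without a filter on low values, 4 with eBayes without trend and 5 with the replicate block, and 3 to 6 with 1 library left out (3 without vehicle replicate 2, 4 without vehicle replicate 1 or 3 or LLY-283 replicate 2, 5 without LLY-283 replicate 1 or 3). Their falls ranged from 13 to 21 over all alternatives. With 1 library left out, the log2 ratio differences ranged from -0.333 to -0.205 for MAT2A to MAT2B, from 0.174 to 0.246 for AHCY to AHCYL1, from -0.35 to -0.18 for MAT2A to AHCY, from -0.132 to -0.0774 for ODC1 to AMD1, from -0.129 to -0.0904 for ODC1 to OAZ1 and from -0.00545 to 0.0576 for SRM to SMS; adjusted p-values of both ODC1 ratios then ran from 0.0429 to 0.0857 (exact permutation test, over the 3 pairs tested; 0.0429 with all libraries, or 0.0343 over all 6 pairs), a design whose smallest unadjusted p is the same 0.0286. SRM changed sign under quantile normalization (log2 fold change -0.014), with mitochondrial genes left out (-0.0084) and with 1 library left out (-0.0466 to 0.0341), PRMT5 likewise (-0.00444, -0.00337 and -0.0295 to 0.0352), and SMS with median-of-ratios scaling (0.0234), under which the median of all genes tested was -0.0022. That median was -0.0466 in the analysis reported and 0.0145 under quantile normalization. The causes were not tested.

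Same-numbered libraries did not deviate together (correlation of deviations between -0.0851 and 0.0320 over the 4 numbers, and no library correlated best with its own number). The values thus gave no sign of pairing by number, but they cannot show whether same-numbered samples were handled together. With the replicate block the members' counts were 0 and 2, as without it, and the ratio differences were -0.296, 0.217, -0.301, -0.113 and -0.112, the last 2 (ODC1 to AMD1 and ODC1 to OAZ1) with an adjusted p of 0.188 over the 3 pairs tested by an exact sign-flip test that cannot go below 0.125. TPM holds no read counts, so the precision of low genes such as MTR cannot be stated from depth.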
